A study of Rattus norvegicus with 28 samples.

Results

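The transcripts that differ between nucleus accumbens (NAc) and medial prefrontal cortex (mPFC) tissue were compared in rats that had received the same lentivirus, lenti-pCDH-H3.3WT, which carries wild-type histone H3.3. The comparison used 14 libraries of the 28 in the series: 7 from NAc and 7 from mPFC, taken by the region and virus given in the sample titles. All donors were male Sprague-Dawley rats, young adults of 200 to 250 g, with 10 days of cocaine self-administration under extended access behind them. They were then injected on both sides of the brain with the virus and spent 30 days in forced abstinence, followed by a test of seeking in response to cocaine-associated cues. Cocaine, abstinence, the cue test and H3.3WT were thus shared by both groups, and no drug-naive or uninjected library enters. The injected region was also the sampled region, so differences between tissues and differences between injection sites cannot be told apart. The 14 H3.3WT libraries are compared at the end with the other 14 libraries, whose virus carried H3.3Q5A, a form of H3.3 with alanine in place of the glutamine that can be dopaminylated.

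The NAc is the ventral part of the striatum. Most of its neurons are GABAergic medium spiny projection neurons, which receive dopamine from the midbrain and glutamate from the cortex and fall into classes that carry D1-type or D2-type dopamine receptors. The mPFC is layered cortex in which glutamatergic pyramidal neurons predominate, with a minority of GABAergic interneurons, and part of its output runs to the NAc. In bulk tissue, more cells of a type and more RNA per cell cannot be told apart.

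Genes are given by Ensembl ID, as deposited. The reference tables used here paired 0 of these IDs with a symbol, so known striatal and cortical markers were not analysed, the labelled tissues were not checked against them, and at most 2 IDs are named in each direction. The gene groups below were therefore formed from the counts. Library totals averaged 26.7 ± 5.93 M (megacounts, SD, n = 7) in NAc and 29.1 ± 7.36 M in mPFC, with a range of 15.4 to 38.8 M. Across genes, the Spearman correlation of log2 levels had a median of 0.990 over the 21 pairs of NAc libraries and 0.990 over the 21 pairs of mPFC libraries. Over the 49 pairs that cross the regions the median was 0.958. NAc replicate 17, the smallest library, stood furthest from its own group, with a median correlation of 0.966, and mPFC replicate 13 followed at 0.980. Each correlation is across genes, which are not independent replicates, and is given as a description.

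The regions differed in a large part of the transcriptome. Of 15507 genes tested, 856 were higher in NAc, which is 5.52% of the genes tested, and 966 were higher in mPFC, which is 6.23%. Calls required a log2 fold change of 1 or more, that is, a 2-fold difference, with an edgeR quasi-likelihood adjusted p below 0.05. Without the fold minimum, 3684 genes (23.8%) were higher in NAc and 3785 (24.4%) in mPFC, so that 48.2% of genes differed at some fold. The median log2 fold change of NAc over mPFC was −0.01 over all genes tested, 1.499 over the calls higher in NAc and −1.45 over the calls higher in mPFC. Among the 856 NAc calls, 646 (75.5%) had every NAc library above every mPFC library, against 12% of all genes tested. The corresponding number for mPFC was 755 of 966 (78.2%), against 12.9% of all genes. These calls and the separation come from the same libraries, so the second does not support the first. At the other end, 11604 genes (74.8%) had a 95% confidence interval that lay within a 2-fold difference either way. The median standard error (SE) of a log2 fold change was 0.122.

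**Figure D1:**
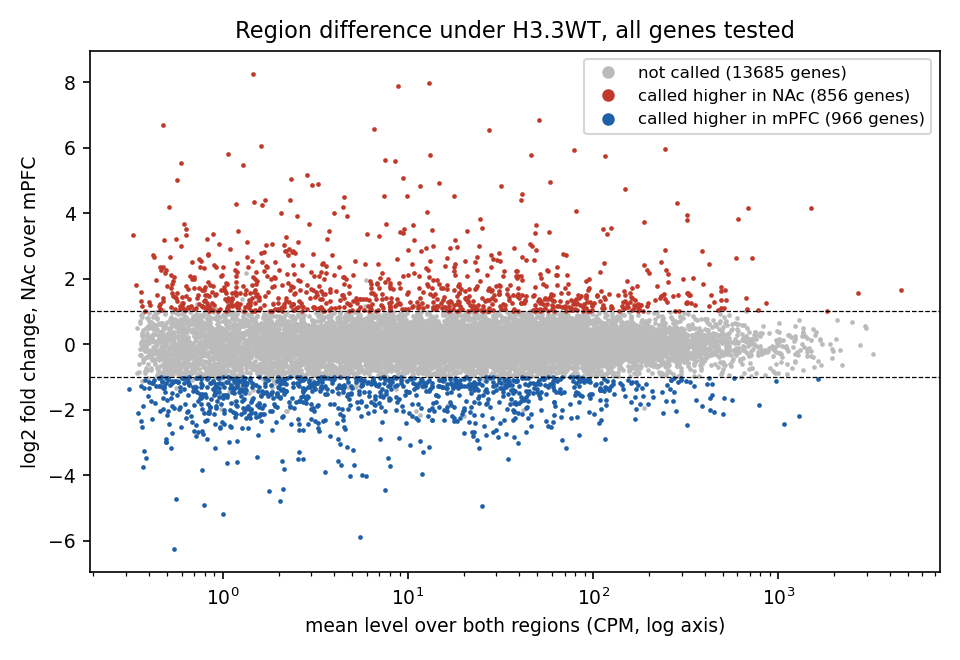
Log2 fold change of NAc over mPFC (y axis) against the mean level over both regions in CPM (counts scaled to library size, log axis) for the 15507 genes tested in the 14 H3.3WT libraries. Each point is a gene, the dashed lines mark a log2 fold change of 1 either way, and the 856 NAc calls reach larger folds than the 966 mPFC calls.

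Under H3.3WT, more genes passed the larger fold limits on the NAc side than on the mPFC side, by a margin that varied with the libraries used. At a log2 fold change of 2 or more, 245 genes were higher in NAc and 224 in mPFC. At 3 or more the numbers were 95 and 44, and at 4 or more, a 16-fold difference, they were 49 and 12. Most calls were smaller: 429 of the NAc calls (50.1%) and 519 of the mPFC calls (53.7%) lay between 1 and 1.5. The number of mPFC genes past 16-fold was 21 without NAc replicate 12, 14 in P1 libraries alone and 29 in P2 libraries alone. The NAc number was 49 without NAc replicate 12, 37 in P1 libraries and 59 in P2 libraries. At a log2 fold change of 3 or more, the NAc and mPFC numbers were 98 and 64 without NAc replicate 12, 86 and 35 in P1 libraries and 124 and 80 in P2 libraries. In the H3.3Q5A libraries they were 105 and 98 at this limit and 49 and 27 at 16-fold. At a log2 fold change of 2 or more the order was reversed in the H3.3Q5A libraries. There, 263 genes were higher in NAc and 319 in mPFC, among genes also tested under H3.3WT.

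The share of genes called was highest among genes with few reads. Among the 1178 genes with a mean under 1 CPM, 117 (9.93%) were higher in NAc and 160 (13.6%) in mPFC. Of the 3962 genes from 1 to 10 CPM, 314 (7.93%) and 399 (10.1%) were called. For the 7914 genes from 10 to 100 CPM the shares were 3.89% and 4.09%. Above 100 CPM the order turned, with 117 of 2453 genes (4.77%) higher in NAc and 83 (3.38%) higher in mPFC. CPM was not scaled by gene length, so these classes sort genes by reads and not by molecules. The deposited table keeps only genes that reached 10 counts in at least 14 of the 28 libraries. Of the genes tested, 9 reached 10 counts in NAc libraries alone and 16 in mPFC libraries alone, over both viruses. Each of them was called, as a gene that passed such a filter through 1 region had to differ.

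The called genes took up a modest part of each library. The NAc calls together held 8.08 ± 1.33% of counts (SD, n = 7) in NAc libraries, from 6.56% to 10.7%, and 2.58 ± 0.376% in mPFC libraries, from 2.19% to 3.19%. The mPFC calls held 5.46 ± 0.154% of counts in mPFC libraries, from 5.21% to 5.64%, and 1.88 ± 0.491% in NAc libraries, from 1.22% to 2.67%. Neither set overlapped between the regions in its share, as their choice favours. Among genes with a mean of at least 10 CPM in one of the regions, 28 were more than 16 times higher in the NAc mean and 6 in the mPFC mean.

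The IDs named here have the largest fitted folds among called genes with a mean of at least 10 CPM in the higher region. On the NAc side, ENSRNOG00000057031 lay between 21.8 and 30.4 CPM in the 7 NAc libraries, with a median of 25.3. In mPFC it had no count in 5 of 7 libraries, 1 count in replicate 35 and 19 counts, or 0.669 CPM, in replicate 11. The lowest NAc library was thus far above the highest mPFC library. Its level averaged 25.7 ± 3.08 CPM (SD, n = 7) in NAc and 0.103 ± 0.250 CPM in mPFC, a fitted log2 fold change of 7.98 (SE 0.58, edgeR adjusted p = 1.4e-07). Replicate 11 sets the size of this fold: the fit without it gave 11.3, a shift that the SE does not cover. On summed counts the ratio of NAc to mPFC was 264, with a 95% exact Poisson interval of 171 to 433 that covers counting error only. Without replicate 11 it rested on 1 mPFC count and was 4552 (817 to 179800).

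ENSRNOG00000028348 ranged from 6.07 to 28.5 CPM in the NAc libraries, with a median of 13.5. In mPFC it was at 0 in 4 of 7 libraries and reached 0.387 CPM, or 11 counts, in replicate 11. The regions did not overlap, but the NAc libraries fell apart into a lower part, with replicate 12 at 6.07 CPM and 3 others between 11.2 and 13.5 CPM, and a higher part, with replicates 23, 17 and 14 between 24.5 and 28.5 CPM. Both P marks occur in each part. The mean was 17.7 ± 8.99 CPM in NAc and 0.0660 ± 0.143 CPM in mPFC, a fitted log2 fold change of 7.89 (SE 0.65, edgeR adjusted p = 4.27e-07). The ratio on summed counts was 245 (146 to 448), and it was 984 (336 to 4773) without mPFC replicate 11, where 3 counts were left.

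On the mPFC side, ENSRNOG00000010983 lay between 2.62 and 18.5 CPM in the mPFC libraries, with a median of 8.96, and between 0.0687 and 0.261 CPM in the NAc libraries, with a median of 0.155. Its mPFC libraries varied widely, with replicate 3 lowest and replicates 13 and 21 highest, but all of them lay above every NAc library. The mean was 10.9 ± 6.06 CPM (SD, n = 7) in mPFC and 0.172 ± 0.0618 CPM in NAc, a log2 fold change of −5.90 (SE 0.46, edgeR adjusted p = 2.62e-07). In NAc it rested on 1 to 9 counts per library, so no NAc H3.3WT library reached the 10 counts of the deposited filter. This gene entered the table through other libraries, which favours its call and its separation.

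ENSRNOG00000016999 was at 27.6 to 57.4 CPM in mPFC, with a median of 53.8, and at 0.493 to 3.71 CPM in NAc, with a median of 1.51. The 4 highest mPFC libraries lay close together, between 53.8 and 57.4 CPM, and replicate 3 was again the lowest. In NAc, replicate 12 was the highest and replicate 21 the lowest. The mean was 48.3 ± 11.4 CPM in mPFC and 1.62 ± 1.09 CPM in NAc, a log2 fold change of −4.93 (SE 0.35, edgeR adjusted p = 1.18e-07).

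**Figure D2:**
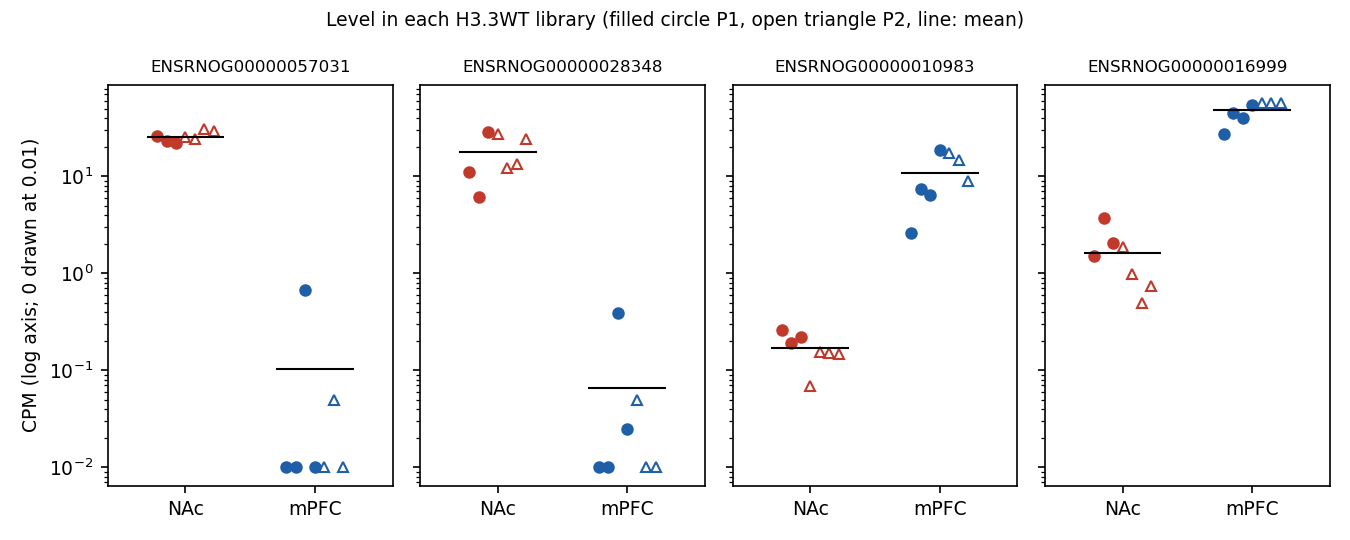
Level of the 4 named genes in each of the 7 NAc (red) and 7 mPFC (blue) H3.3WT libraries, in CPM on a log axis with 0 drawn at 0.01. Filled circles are P1 and open triangles P2 libraries, the black line is the mean, and in the first and second panels mPFC replicate 11 is the highest blue point.

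The libraries of a region differed in their level of the genes that are higher in the other region. This was measured with lists chosen on the H3.3Q5A libraries, which share no sample with the H3.3WT ones: 263 NAc-high and 319 mPFC-high genes with an edgeR adjusted p below 0.05 and a log2 fold change of 2 or more. In the H3.3WT fit 260 of the 263 were called higher in NAc and 308 of the 319 higher in mPFC, where 5.52% and 6.23% of all genes were called. Their median log2 fold changes under H3.3WT were 2.62 and −2.14, beside −0.01 for all genes. For each gene and library, the CPM was divided by the mean of the region where the gene is high, and the median over the list was taken.

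In NAc, the mPFC-high genes stood at 11.1% to 32.3% of their mPFC level, with a median library of 19.6%. Replicate 12 was the highest, replicates 8 and 23 followed at 25.2% and 25.02%, and replicates 17 and 21 were the lowest at 12.8% and 11.1%. The genes moved together: in replicate 12, 83.4% of the 319 genes were above their own NAc median, against 49.8% of all genes, and in replicate 21 it was 9.72%, against 43.5% of all genes. Replicate 21 also had the highest level of the NAc-high list, 115% of the NAc mean, where the other 6 lay between 88.9% and 103%. On the log2 scale the mPFC-high list averaged 1.05 ± 0.54 log2 CPM (SD, n = 7) over NAc libraries and 3.35 ± 0.12 over mPFC libraries. The median SD of a single gene of this list was 0.692 between NAc libraries and 0.35 between mPFC libraries. For all genes tested, which were not matched for level, it was 0.242 and 0.176.

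In mPFC the level of the NAc-high list spanned a narrower range. It lay between 13.2% and 15% of the NAc level in 6 libraries and at 18.2% in replicate 11. In replicate 11, 70.3% of the 263 genes were above their own mPFC median, against 41.4% of all genes. The mean of this list was 0.95 ± 0.18 log2 CPM over mPFC libraries, with replicate 11 at 1.32, and 3.799 ± 0.16 log2 CPM over NAc libraries. Single genes of this list had a median SD of 0.428 between mPFC libraries and 0.386 between NAc libraries, beside 0.176 and 0.242 for all genes tested. These were not matched for level, and genes with few reads are less precise. The median SE of a log2 fold change was 0.284 under 1 CPM and 0.0909 above 100 CPM. The part that dissection or cell makeup plays in these levels was not tested. Leaving out NAc replicate 12 and mPFC replicate 11 together gave 915 NAc and 1055 mPFC calls. These libraries were picked for having the most transcript of the other region, which favours more calls without them.

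**Figure D3:**
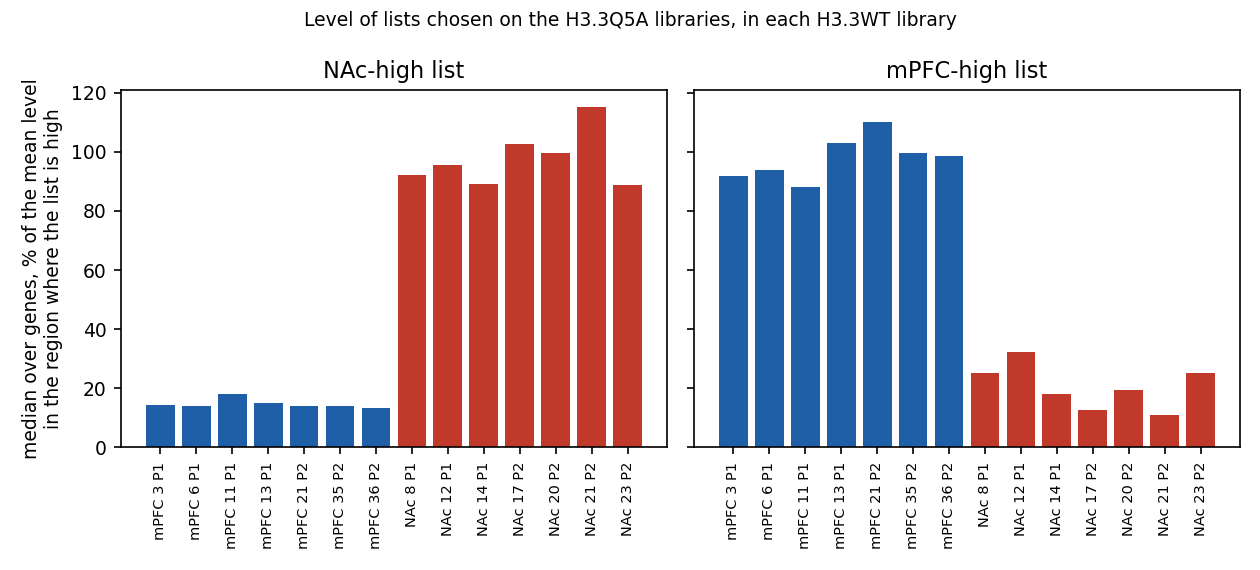
Median level, over the genes of a list, in each H3.3WT library, as a percentage of the mean of the 7 libraries of the region where the list is high (red NAc, blue mPFC, with the replicate number and P mark). The mPFC-high list ranges from 11.1% to 32.3% among NAc libraries, and the NAc-high list from 13.2% to 18.2% among mPFC libraries.

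The P1 and P2 marks in the titles, whose meaning the labels do not give, split the libraries into 3 NAc and 4 mPFC P1 libraries and 4 NAc and 3 mPFC P2 libraries. The region difference was present in each subset, which share no library. P1 libraries gave 640 genes higher in NAc (4.11% of those tested) and 804 higher in mPFC (5.16%), and P2 libraries gave 920 (5.91%) and 1002 (6.44%). Of these, 518 NAc genes were called in both, which is 80.9% of the P1 list and 56.3% of the P2 list. For mPFC, 629 were called in both, 78.2% of the P1 and 62.8% of the P2 list. Across 15474 genes, the 2 sets of log2 fold changes had a Pearson correlation of 0.854 and a Spearman correlation of 0.818, given as a description. ENSRNOG00000016999 had a log2 fold change of −4.13 in P1 and −5.89 in P2 libraries, and ENSRNOG00000010983 had −5.25 and −6.57. On the NAc side, ENSRNOG00000057031 had 7.11 and 10.75, and ENSRNOG00000028348 had 7.14 and 9.51. The P2 values of these NAc-side genes rest on 1 and 2 mPFC counts and are imprecise. The mPFC-high list averaged 25.3 ± 7.03% of its mPFC level in the 3 P1 and 17.1 ± 6.43% in the 4 P2 libraries of NAc, and the ranges overlap. For the P mark itself, edgeR called 0 of 15507 genes after adjustment, while the unadjusted p was below 0.05 for 475 (3.06%).

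**Figure D4:**
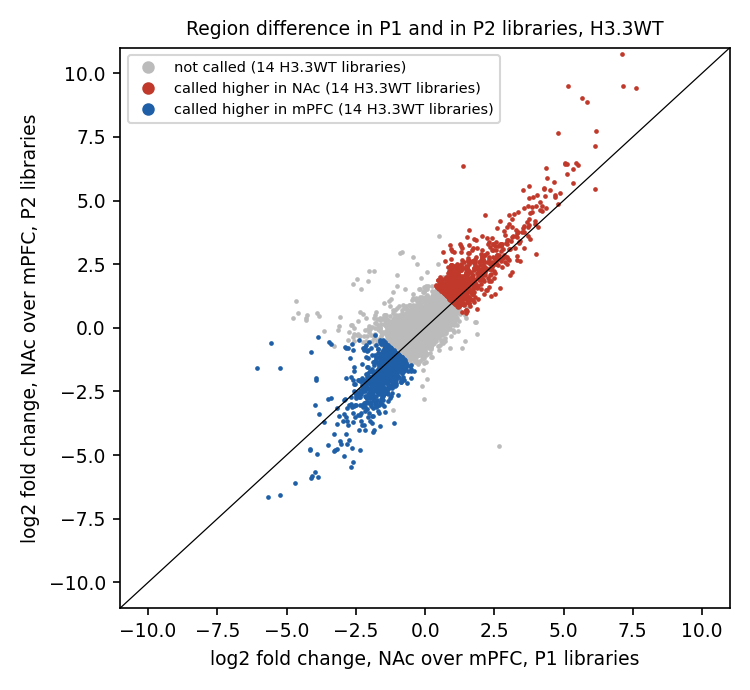
Log2 fold change of NAc over mPFC in P1 (x axis) and in P2 libraries (y axis), each point a gene, with the line of equal folds. Colours give the calls from all 14 H3.3WT libraries, and the 2 sets of folds have a Pearson correlation of 0.854 across genes.

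The H3.3Q5A libraries gave a separate measurement of the same region difference, with 7 libraries per region. There 906 genes (5.82% of those tested) were higher in NAc and 1190 (7.64%) in mPFC. Of the 856 NAc calls under H3.3WT, 676 (79%) were called in the same direction under H3.3Q5A, which is 74.6% of the H3.3Q5A list. Of the 966 mPFC calls, 862 (89.2%) were, which is 72.4% of the H3.3Q5A list. None was called in the opposite direction. Among NAc calls that could be compared, 425 of 855 had a larger fold under H3.3Q5A, and among mPFC calls 671 of 958 did. These calls were chosen on their H3.3WT folds, which favours a larger fold there. The same count over all genes was not made. The median log2 fold change of the H3.3WT calls was 1.499 under H3.3WT and 1.51 under H3.3Q5A on the NAc side, and −1.45 and −1.63 on the mPFC side. No single gene passed the edgeR test of the difference between the viruses (region by virus interaction). The adjusted p was below 0.05 for 0 of 15635 genes. The unadjusted p was below 0.05 for 822, near the share that chance alone gives at this limit. Across 15471 genes the 2 sets of fold changes had a Pearson correlation of 0.946 and a Spearman correlation of 0.912.

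The named genes had the same direction in the H3.3Q5A libraries. ENSRNOG00000057031 averaged 34.3 ± 11.5 CPM (SD, n = 7) in NAc and 0.398 ± 0.927 CPM in mPFC. ENSRNOG00000028348 averaged 16.3 ± 3.87 CPM in NAc and 0.103 ± 0.213 CPM in mPFC. For ENSRNOG00000010983 the means were 14.996 ± 8.09 CPM in mPFC and 0.0729 ± 0.0618 CPM in NAc, and for ENSRNOG00000016999 they were 60.9 ± 15.8 CPM and 1.13 ± 0.661 CPM. The edgeR adjusted p of the interaction was 0.904 to 0.945 for these 4 genes.

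**Figure D5:**
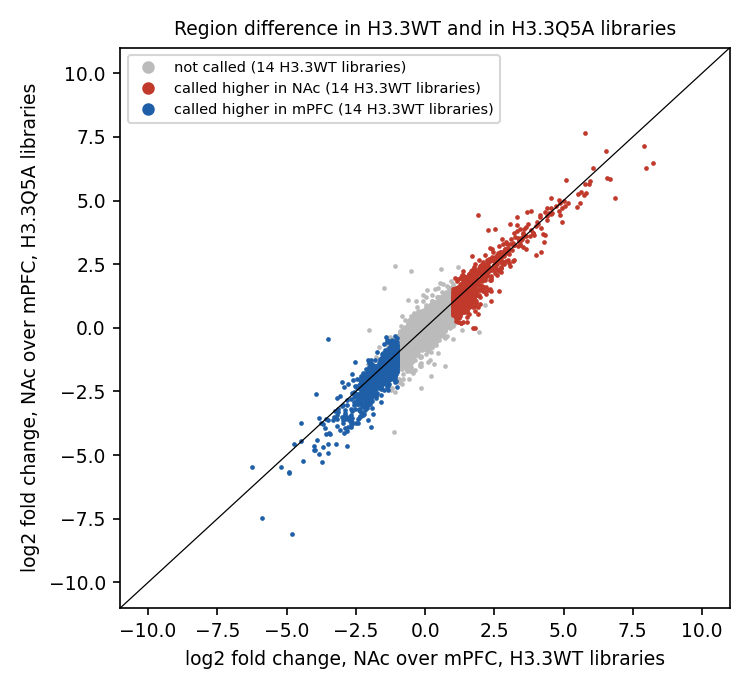
Log2 fold change of NAc over mPFC in the 14 H3.3WT libraries (x axis) and in the 14 H3.3Q5A libraries (y axis), each point a gene, with the line of equal folds. Colours give the H3.3WT calls, of which 676 of 856 (NAc) and 862 of 966 (mPFC) were also called under H3.3Q5A.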

How the data were processed

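Polyadenylated RNA was extracted with Trizol, cleaned on RNeasy Micro columns and made into libraries with the TruSeq RNA V2 kit, per the labels' protocols. The submitters' processing notes name HISAT2 2.1.0, featureCounts 2.0.1, DESeq2 1.6.3 and genome build rn6, without their roles. The deposited values are raw read counts per Ensembl gene, and the table holds 15635 genes, each with at least 10 counts in at least 14 libraries. No annotation release is given in the sources used here.

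The 14 H3.3WT libraries were fitted with edgeR 4.0.16 in R 4.3.3 (filterByExpr, TMM, quasi-likelihood F test) with region and P mark as additive terms, which left 15507 genes. Benjamini-Hochberg adjustment ran over all of them. CPM used TMM-scaled library sizes, and log2 CPM a prior count of 2. DESeq2 1.42.0 and limma 3.58.1 (voom with quality weights) served as alternatives, and the procedure was tested on simulated data. The simulation had no P effect and no shared movement of genes between libraries. Changes were seeded only in genes with a mean of at least 1 CPM, so recovery of changes below that level was not tested. Titles give each library's region, virus, replicate number and P mark. The labels do not say which animal a library came from, and p-values then cover only the spread among the libraries. Within a group, no 2 libraries agreed within sampling noise (lowest chi-square per degree of freedom, 9.16). The genes named are the 2 with the largest fold in each direction among calls reaching 10 CPM, because no symbols were at hand, and the lists of marker symbols were not applied. The comparison and gene lists were chosen with earlier results of these data known.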

Additional observations from a re-analysis of the deposited data

Results flagged for a closer look

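Each of the 7-library groups was searched, over 22 sets of values, for a highest or lowest library that stood far from the nearest other library relative to the range of the group. For normally distributed values, chance marks about 1 in 20 such groups. ENSRNOG00000057031 and ENSRNOG00000028348 had no count in most mPFC libraries, so this rate does not hold for their mPFC values. The rule marked 3 values, all from mPFC H3.3WT replicate 11: ENSRNOG00000057031 at 0.669 CPM, ENSRNOG00000028348 at 0.387 CPM, and the NAc-high list at 18.2% of its NAc level. The gap to the next library was 0.926, 0.871 and 0.642 of the group's range. These values share a library and are not independent of each other.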

How the results depend on the processing

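No paired analysis was possible because the labels do not say which animal a library came from. NAc H3.3WT and mPFC H3.3WT share only 1 replicate number in their titles, and a shared number need not mean a shared animal. The counts of 856 and 966 stayed within 1.5 times under the other normalization, DESeq2 (862 and 978), voom, both filters, no P term, each P subset, all 28 libraries in 1 fit and each library left out (810 to 907 in NAc and 916 to 1035 in mPFC). The call rule moved them: testing the fold itself against a log2 fold change of 1 gave 368 NAc and 404 mPFC genes, and dropping the fold minimum gave 3684 and 3785. Without the fold minimum the calls shared with H3.3Q5A were 3184 and 3329 in place of 676 and 862. Among the settings that kept the call rule, the share of the calls that remained was lowest in P1 libraries alone, 68.9% in NAc and 74.4% in mPFC. The 4 named genes kept direction and call under every setting that gave an adjusted p. DESeq2 gave none for ENSRNOG00000057031. Genes under the deposited minimum of 10 counts in 14 libraries were not analysed here, and folds against a few counts are imprecise. The setting without NAc replicate 12 and mPFC replicate 11 was chosen after seeing the data.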
